A study of Mus musculus with 12 samples.

Results

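The genes described here encode the proteins of the cytosolic ribosome, and were taken by symbol. A gene was a member if its symbol was Rpl or Rps followed by a number (with a, l, x or y as an optional ending) or was Rplp0, Rplp1, Rplp2 or Rpsa. Kinases named Rps6k and symbols with the pseudogene ending -ps were left out. Only probe sets listed with 1 gene symbol were used, and the probe set of highest mean over the 12 arrays stood for its gene. The rule found 46 genes on 100 probe sets, out of 18194 genes with such a probe set on the array. By their symbols, 24 of these genes belong to the large subunit and 22 to the small subunit. One of them, Rps4l, is annotated in RefSeq as a transcribed pseudogene. The mouse reference holds 83 symbols of this form, so 37 are not analysed here. For 28 of the 37 the symbol stood only on probe sets that list several genes, and Rplp1 and Rpl5 are among them.

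The 12 samples, each on its own Affymetrix mouse array, were regulatory T cells (Tregs), a CD4+ lineage that holds other immune cells in check. They had been sorted by flow cytometry and were used fresh. The 4 groups of 3 arrays were wild type (WT), Ebi3-/- (Ebi3_KO), Il10-/- (Il10_KO) and Ebi3-/- Il10-/- (DKO) mice, and the question was how Tregs of these genotypes differ. Il10 encodes the suppressive cytokine IL-10, and Ebi3 encodes a chain that IL-27 and IL-35 have in common. The labels name 3 batches, and each batch holds 1 array of each genotype with the same replicate number. They give no strain, age, sex or allele, and do not say whether replicates were separate animals or pools, so p-values measure only the spread between these arrays. The number of arrays limits the precision of every value.

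Values are MAS5 signals, the array software's summary of how brightly a set of short probes lit up. Levels and differences are given on the scale log2(signal + 20). The median signal of an array lay between 59.5 and 89.3. All 10 Treg markers looked at had signals of at least 1612 on every array, with Foxp3, the factor that defines Tregs, at 4945 to 7955. Markers of other cells moved with batch. The summed signal of 6 myeloid markers, led by Lyz2 and Csf1r, was 2816 to 3733 in batch 1, 2206 to 4300 in batch 2 and 21247 to 39873 in batch 3, and none of the 6 was at 0. The 4 measured B cell markers, led by Ms4a1 and Cd79b, summed to 2074 to 3941 in batch 1, 774 to 1809 in batch 2 and 2285 to 7401 in batch 3, with none at 0. All 4 passed as lower in batch 2 than in batch 1, with a median log2 difference of -1.523. Of 4 plasma cell markers 2 were higher in batch 2 and 2 in batch 3, and of 6 CD8 T and NK cell markers 2 were lower in batch 2 and 3 higher in batch 3. Of the 10 Treg markers 2 were higher and 2 lower in batch 2, and 6 were lower in batch 3, with a median of -0.471 (all by limma with genotype and batch, against batch 1). The 3' over 5' signal ratio of the Gapdh control, a sign of RNA integrity and of labelling length, was 3.30 to 3.35 in batch 1, 10.06 to 23.45 in batch 2 and 3.55 to 6.77 in batch 3. In bulk RNA of this kind, fewer cells of a type and less RNA per cell cannot be told apart.

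A ribosome is built from a small subunit, which reads the messenger RNA, and a large subunit, which joins the amino acids, and each carries ribosomal RNA and a set of proteins that are made in matched amounts. Ribosomal protein messages are among the most abundant in dividing cells, and many begin with a run of pyrimidines, the 5' terminal oligopyrimidine tract, through which mTOR signalling sets how much they are translated. In Tregs mTOR activity is known to tune both proliferation and suppressive function.

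Most of the ribosomal protein genes lay at the top of the signal range. On the log2(signal + 20) scale 31 of the 46 had a mean level of 14 or above, 9 lay between 9 and 14, and 6 lay below 9. The 99th percentile of the means of all probe sets was 13.59, and 33 of the 46 lay above it. Between 18 and 22 of the 46 stood among the 100 brightest probe sets of each array. The median member level of an array ranged from 14.51, in DKO replicate 2, to 14.89, in Ebi3_KO replicate 2. An order of signals is an order of probe sets and not of transcripts, since probes differ in how well they bind.

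**Figure D1:**
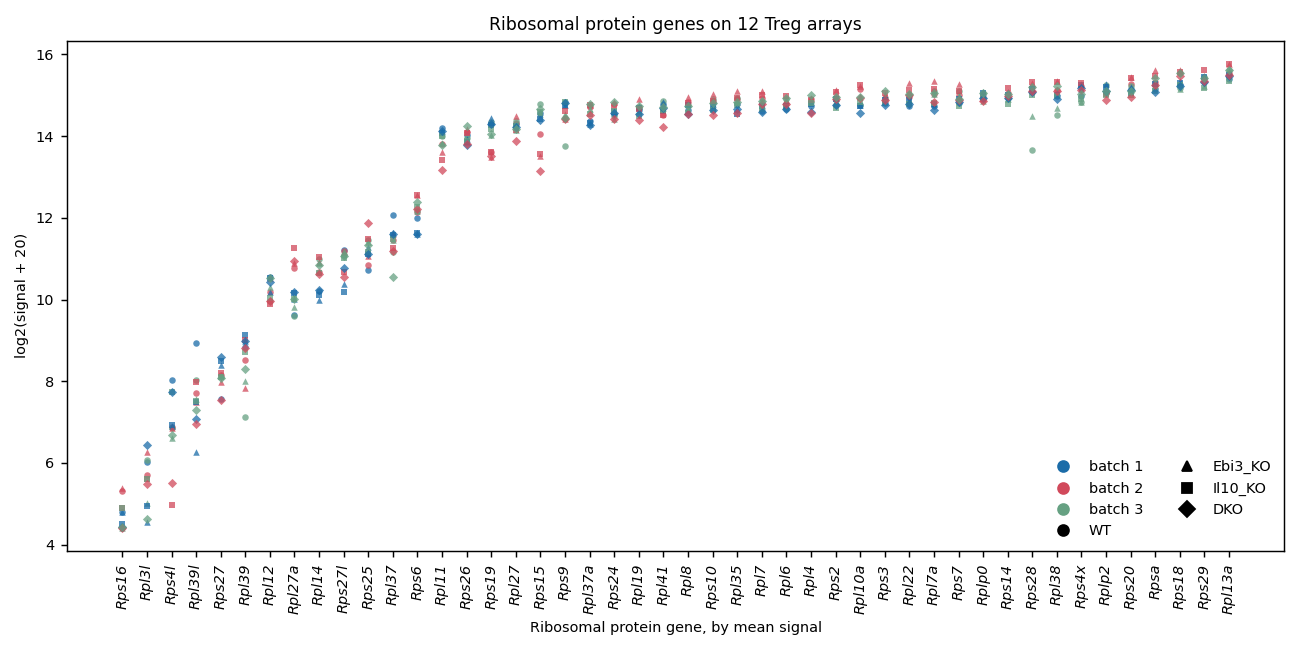
Level of each of the 46 ribosomal protein genes on the 12 arrays, as log2(signal + 20), ordered from the lowest to the highest mean signal. Colour marks the batch and shape the genotype. The 31 genes with a mean of 14 or above form a plateau, within which Rps15, Rps28 and Rps19 spread most (SD 0.538, 0.466 and 0.353 over the 12 arrays), and Rps4l, at 0.873, spreads most of all members.

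Rpl13a, a large subunit protein also known from a complex that silences translation after interferon gamma, was the brightest of all probe sets on 8 of the 12 arrays. Its signals in WT, Ebi3_KO, Il10_KO and DKO were 42805, 48820.2, 46521 and 45562 in batch 1, 47838, 55333, 55714 and 46562 in batch 2, and 49894, 49604, 41564 and 50242 in batch 3. All 12 values of this probe set lay within a narrow band and the 4 groups overlapped. Another Rpl13a probe set was lower in batch 2 than in batch 1, at -0.60 (adjusted p 0.00042 by limma with genotype and batch). The remaining ones, at 0.01 and -0.15, were not called. Rps29, Rps18, Rpsa, Rps20, Rplp2, Rps4x and Rpl38 followed, with mean signals of 43129, 42556, 40214, 37144, 35227, 35172 and 33646. Rpsa is the small subunit protein also known as the laminin receptor precursor, Rps4x is encoded on the X chromosome, and Rpl38 is known for the translation of Hox messages in the mouse embryo.

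The stalk of the large subunit, which recruits translation factors, was represented by Rplp0 and Rplp2. Rplp0 had the smallest spread of the members over the 12 arrays, an SD of 0.083 on the log2 scale, with signals between 29753 and 34537. Rplp2 had an SD of 0.109 and signals of 30201 to 39950. Rps3, a small subunit protein that also has a part in DNA repair, had an SD of 0.105 and signals of 27861 to 34965. A dimmer Rps3 probe set, with a mean level of 10.47, was higher in batch 2 than in batch 1 by 1.16 (adjusted p 0.000193 by limma with genotype and batch). For comparison, the median SD over the 12 arrays was 0.150 for the 31 members at 14 or above and 0.169 for all 300 probe sets of that class.

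At the other end, 6 genes had mean signals of 7.2 (Rps16), 30.3 (Rpl3l), 109.9 (Rps4l), 183.0 (Rpl39l), 263.7 (Rps27) and 373.3 (Rpl39). Rpl3l is a paralog of striated muscle and Rpl39l a paralog best known from testis. Rps16, Rps27 and Rpl39 are core ribosomal proteins, so their low values are values of these probe sets and no measure of the proteins' supply. Rps16, at 1.3 to 21.5 on the 12 arrays, did not pass the filter on dim probe sets (at least the 40th percentile of its array on at least 3 arrays), and 45 members were tested. Rps27l, the stress-responsive paralog of Rps27, was measured at 1144 to 2369.

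The deposited values carry no saturation flag. The mean signals of the 31 brightest members differed 2.86-fold from the lowest to the highest. Among probe sets at 14 or above the median residual SD, after genotype and batch were taken out, was 0.131 for the 31 members and 0.129 for all 300, members included. In the classes of 12 to 14, 9 to 12 and below 9 it was 0.182, 0.268 and 0.585 for the members, against 0.168, 0.210 and 0.399 for all. Whether the brightest signals were saturated was not tested.

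**Figure D2:**
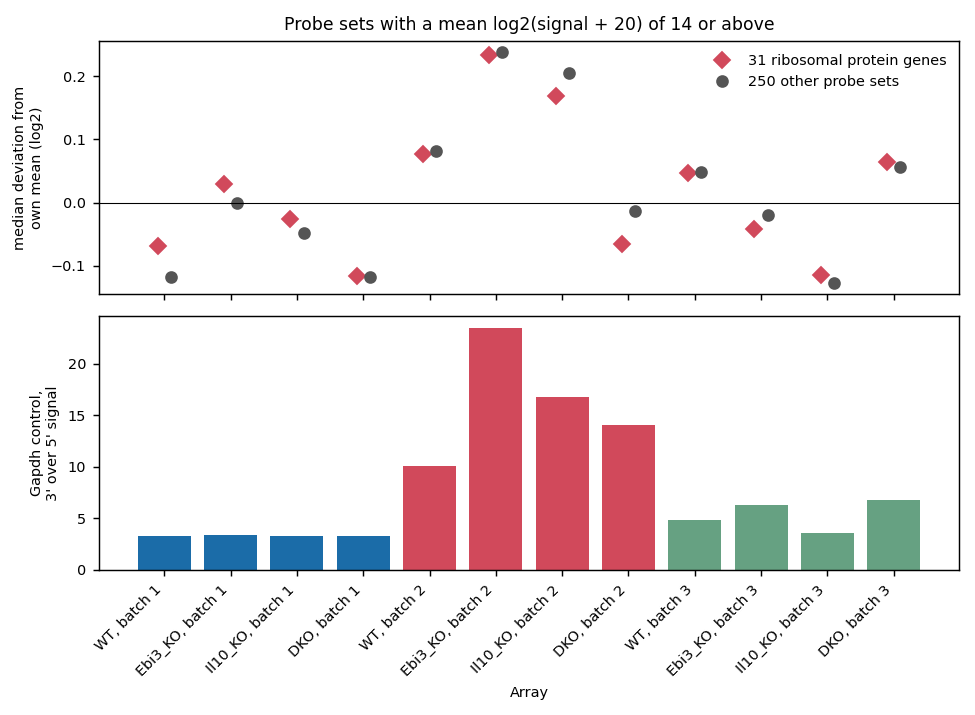
Upper panel: for each array, the median deviation of 31 ribosomal protein genes (diamonds) and of 250 other equally bright probe sets (circles) from their own means over the 12 arrays, in log2 units. Probe sets that list several genes, ribosomal protein genes included, were not taken out of the 250. Lower panel: the ratio of 3' to 5' signal of the Gapdh control, coloured by batch. The diamonds and circles sit close together on every array, and the ratio is highest in batch 2.

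The bright members moved up and down with other bright probe sets, array by array. The median deviation from a probe set's own mean was 0.234 for the 31 members and 0.238 for 250 others on the Ebi3_KO array of batch 2, the highest of the 12. On the Il10_KO array of batch 2 it was 0.169 and 0.205, on the DKO array of batch 2 it was -0.065 and -0.014, and on the Il10_KO array of batch 3 it was -0.115 and -0.127. The DKO array of batch 2 had the widest gap between members and others, and on the WT array of batch 1 the medians were -0.069 and -0.118.

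None of the 45 tested ribosomal protein genes passed the threshold in any genotype comparison. The test was limma with Benjamini-Hochberg adjustment over 31235 probe sets and a threshold of 0.05, without a batch term. The background was low too: of all tested probe sets 0.0032% passed in Ebi3_KO against WT, 0.0064% in Il10_KO against WT and 0.0096% in DKO against WT. An unadjusted p under 0.05 was reached by 1, 0 and 1 of the 45 members, against 1.41%, 1.98% and 2.14% of all tested. DKO against Ebi3_KO, DKO against Il10_KO and the interaction of the knockouts gave 0 members each, beside 0.0064%, 0.0032% and 0% of all tested. In these 3 comparisons 0 members had an unadjusted p under 0.05, beside 1.39%, 1.24% and 1.28% of all tested. In the F test for any genotype 0 members passed, beside 0.0096%, and 1 had an unadjusted p under 0.05, beside 1.33%. The smallest adjusted p of a member was 1 in all of these.

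On the log2 scale the median member differed from WT by 0.051 in Ebi3_KO, 0.004 in Il10_KO and -0.052 in DKO, where the medians of all tested probe sets were -0.028, -0.001 and 0.009. Most members are bright, and most tested probe sets are not. At 14 or above, the median of DKO against WT was -0.049 for the 31 members and -0.037 for all 300 probe sets, members included. Medians by level were not taken for the other genotype comparisons. Differences within 0.2 of 0 were found for 35, 33 and 31 of the 45 members, beside 52.3%, 49% and 47.4% of all tested. The members above 0 numbered 30, 23 and 17, beside 45.7%, 49.9% and 51.2% of all tested. DKO was above Ebi3_KO for 9 members, beside 55.5% of all tested, with a median of -0.083 against 0.036 for all tested. It was above Il10_KO for 7, beside 51.3%, with a median of -0.047 against 0.007. These comparisons share arrays and their counts are not independent. Other bright probe sets moved much as the bright members did. The median deviations of the 250 others (probe sets listing several genes included) in batches 1, 2 and 3 were -0.117, -0.014 and 0.056 in DKO. They were 0, 0.238 and -0.019 in Ebi3_KO and -0.048, 0.205 and -0.127 in Il10_KO. The 31 bright members gave -0.116, -0.065 and 0.064, then 0.03, 0.234 and -0.042, then -0.026, 0.169 and -0.115. With arrays or batches left out the median of DKO against Ebi3_KO ran from -0.203, without batch 3, to -0.01, and that of DKO against Il10_KO from -0.149, without batch 3, to 0.055.

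**Figure D3:**
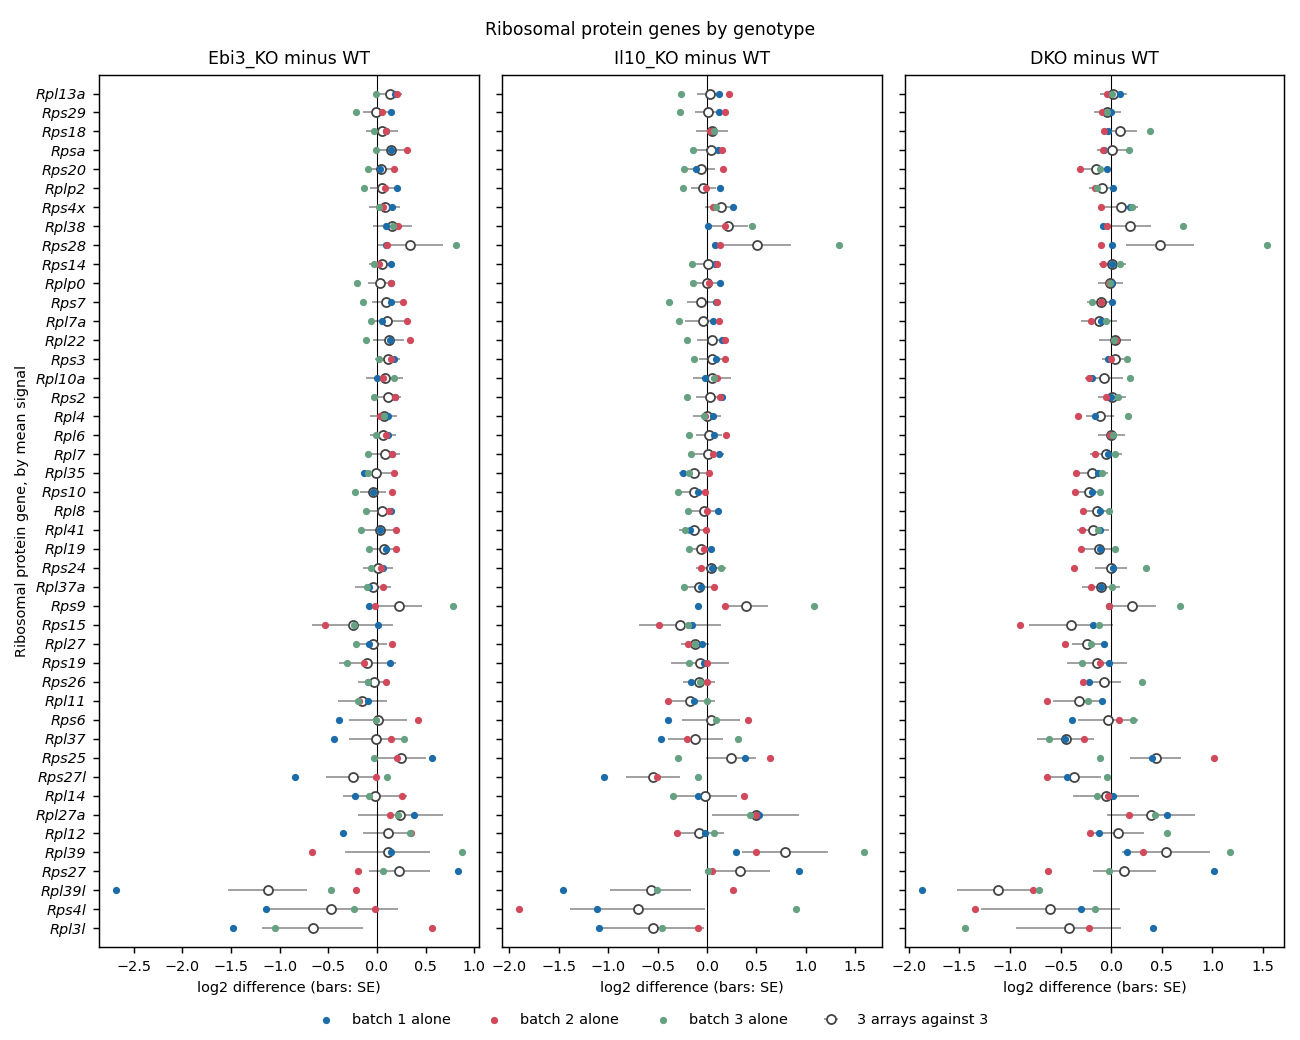
Difference of each knockout from WT for the 45 tested ribosomal protein genes, in log2 units, with the standard error from the fit without a batch term. Coloured points give the same difference within each batch, 1 array against 1. Most open circles lie within 0.2 of 0, and each batch holds points that lie far out.

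By subunit, the median in DKO against WT was -0.10 over 24 large subunit genes and 0.00 over 21 small subunit genes (Rps4l included), and no gene of either passed. In Ebi3_KO the medians were 0.06 and 0.05, and in Il10_KO -0.04 and 0.03.

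The batch numbers pair the arrays, so the comparison was also fitted with batch as a block. It again called 0 of 45 members in each of the 6 contrasts, where the background was 0.0032%, 0.0384% and 0.0416% for Ebi3_KO, Il10_KO and DKO against WT. For DKO against Ebi3_KO, DKO against Il10_KO and the interaction it was 0.0192%, 0.0032% and 0%, and for any genotype, again with 0 members, 0.0416%. In the comparisons with WT an unadjusted p under 0.05 was then reached by 1, 5 and 5 members (2.22%, 11.1% and 11.1%), beside 5.31%, 7.68% and 8.25% of all tested. The smallest adjusted p of a member with the block was 0.910, 0.457 and 0.489.

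The member nearest the threshold with the block was Rpl27a, a large subunit protein, in Il10_KO. Its signals in WT, Ebi3_KO, Il10_KO and DKO were 768, 1008, 1121 and 1137 in batch 1, 1726, 1890.2, 2437 and 1951 in batch 2, and 750.2, 876, 1021 and 1017 in batch 3. WT was the lowest of the 4 arrays in every batch, but the batches differed by more than the genotypes and the groups overlapped. Il10_KO exceeded WT by 0.49 (SE 0.143, adjusted p 0.457 by limma with the block) on the log2 scale and DKO by 0.39 (SE 0.143, adjusted p 0.530). The difference of Ebi3_KO was 0.24, with 0.38, 0.13 and 0.22 within batches 1, 2 and 3, and with the block it ran from 0.18 to 0.3 when arrays were left out. In the fit without the block it was -0.09 without Ebi3_KO replicate 2.

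Rpl39l had the lowest differences from WT, at -1.12 in both Ebi3_KO and DKO (SE 0.406, adjusted p 1 by limma without the block). The signals of this dim probe set were 473, 57.0, 158.7 and 114.9 in batch 1, 190.0, 160.4, 231.4 and 103.0 in batch 2, and 239.6, 167.9, 161.7 and 138.5 in batch 3, in the order WT, Ebi3_KO, Il10_KO and DKO. The WT array of batch 1 stood highest and Ebi3_KO of the same batch lowest. With the block the adjusted p-values were 0.910 and 0.489.

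Rps28, a small subunit protein near the exit site, showed how 1 array can carry a difference at high signal. Its signals in WT, Ebi3_KO, Il10_KO and DKO were 34423, 36764, 36354 and 34655 in batch 1, 37673, 40485, 41198 and 35099 in batch 2, and 13023, 22837, 32743 and 37808 in batch 3. The WT and Ebi3_KO arrays of batch 3 were the lowest, and the other 10 lay between 32743 and 41198. The difference from WT was 0.34 in Ebi3_KO, 0.51 in Il10_KO and 0.48 in DKO (SE 0.337 each, adjusted p 1 by limma without the block), and without WT replicate 3 it was -0.15, 0.02 and -0.01. With the block the lowest values with 1 array left out were -0.05, 0.12 and 0.09. On that same WT array the other probe sets of Rps28 read 23049.6 and 27957, where they read 26067 and 26853 on the WT array of batch 1. Rps9 was low there too, at 13848 against 21708 to 29387 on the other 11 arrays, and Rpl38 had the lowest of its 12 signals there, at 23393.

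Of the remaining members with larger differences, Rps15 had its own lowest difference from WT in DKO, at -0.40 (SE 0.413). Within batches 1, 2 and 3 this was -0.18, -0.90 and -0.12. Without DKO replicate 2 it was 0.06 in the fit without the block, and with the block it ran from -0.52 to -0.23 when arrays were left out. Rpl37 was at -0.45 in DKO (SE 0.279) and Rps27l at -0.55 in Il10_KO (SE 0.272). Rps25, a small subunit protein used in initiation at internal entry sites, was at 0.44 in DKO (SE 0.251). Rpl39, at the exit of the peptide tunnel, was at 0.79 in Il10_KO (SE 0.436). Each of these 5 had an adjusted p of 1 by limma without the block.

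Between batches, ribosomal protein genes did pass the threshold, at no higher rate than the array as a whole. In the limma fit with genotype and batch, 12 of 45 members (26.7%) passed in batch 2 against batch 1, beside 28.1% of all tested probe sets. Batch 3 against batch 1 gave 5 members (11.1%) beside 28.7%, and batch 3 against batch 2 gave 7 (15.6%) beside 21%. The F test for any batch gave 15 members (33.3%) beside 41.8%.

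In batch 2, 8 members were higher and 4 lower than in batch 1, beside 9.32% and 18.8% of all tested probe sets. Over the 45 members the median difference was 0.117 with 32 above 0, and over all tested it was -0.176 with 37.2% above 0. Bright probe sets in general were higher in batch 2: among all 300 probe sets at 14 or above the median was 0.188 and 83.7% lay above 0, and for the 31 members of that class the values were 0.117 and 24 of 31. The split changed with the scaling. After quantile normalization 4 members were higher and 7 lower, with a median of -0.022 where all tested had 0.022. With each array centred on its median 29 were higher and 2 lower, with a median of 0.425 where all tested had 0.132. Of the 31235 tested probe sets 7496 were called after quantile normalization and 8977 after centring. All 12 called members kept their sign under both scalings, and 7 of them were called again after quantile normalization and 10 after centring.

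**Figure D4:**
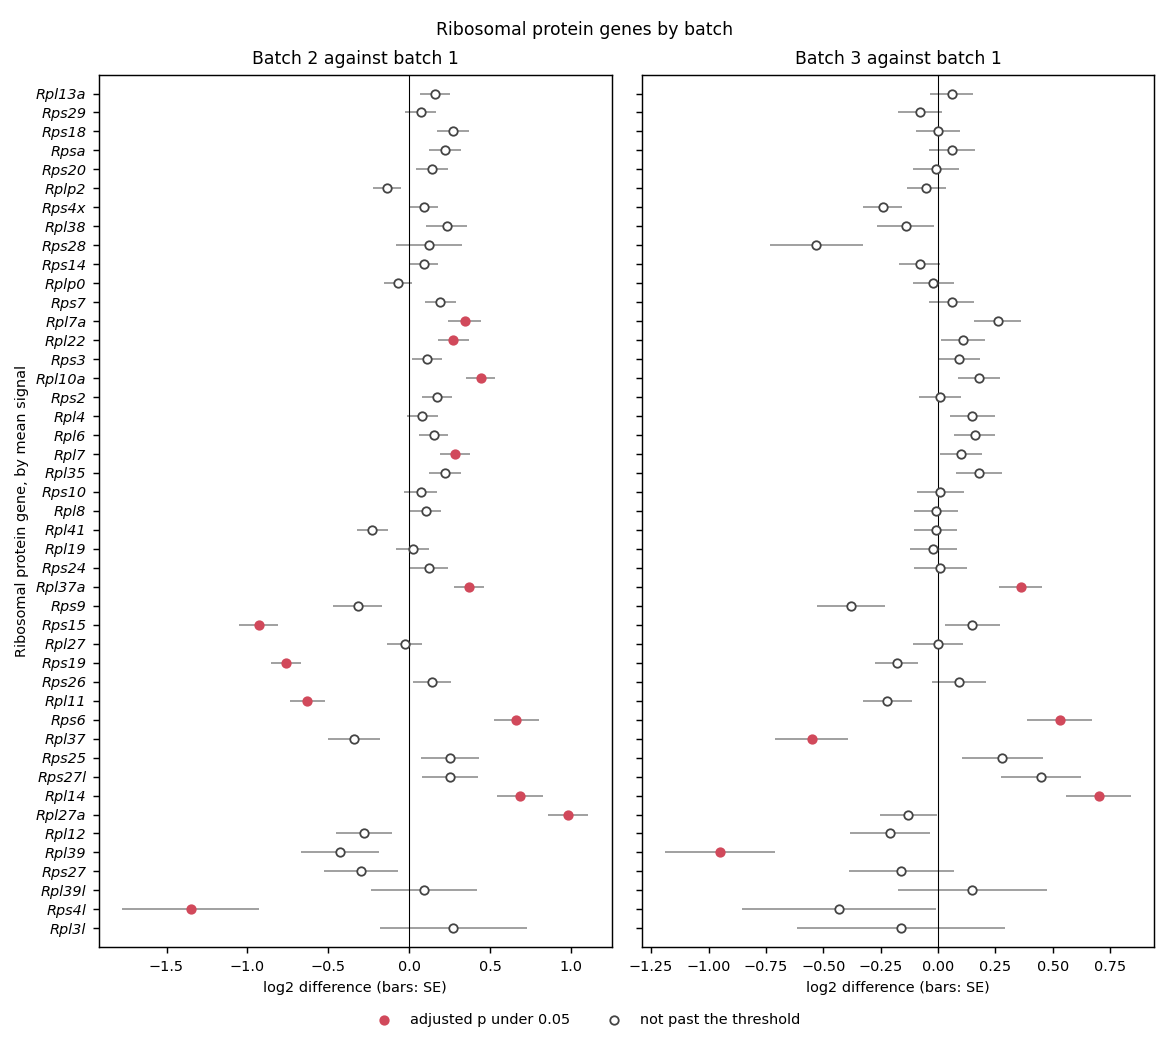
Difference of batch 2 (left) and batch 3 (right) from batch 1 for the 45 tested ribosomal protein genes, in log2 units with standard errors from the fit with genotype and batch. Filled points passed an adjusted p of 0.05. In batch 2 the filled points lie on both sides of 0, with Rps4l, Rps15, Rps19 and Rpl11 to the left and Rpl27a, Rpl14 and Rps6 farthest to the right.

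The genes higher in batch 2 were Rpl27a, Rpl14, Rps6, Rpl10a, Rpl37a, Rpl7a, Rpl7 and Rpl22. Rpl27a, whose signals are given above, ran from 1726 to 2437 in batch 2 and from 750.2 to 1137 in the others, with no overlap. Its difference was 0.98 (SE 0.124, adjusted p 0.000175 by limma) against batch 1, and batch 3 was below batch 2 by a log2 difference of -1.11 (SE 0.124, adjusted p 7.04e-05).

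Rps6, the small subunit protein phosphorylated by the S6 kinases downstream of mTOR, had signals in WT, Ebi3_KO, Il10_KO and DKO of 4095, 3116, 3128 and 3112 in batch 1, 4509, 6054, 6011 and 4771 in batch 2, and 4571, 4550.2, 4879 and 5325 in batch 3. Every array of batches 2 and 3 was above every array of batch 1, and the WT arrays differed least. The differences were 0.66 (SE 0.140, adjusted p 0.00373 by limma) in batch 2 and 0.53 (SE 0.140, adjusted p 0.0124) in batch 3. The batch 3 call was lost with the mean of all probe sets of the gene, at 0.15 (adjusted p 0.499), and without Ebi3_KO replicate 1, Il10_KO replicate 1 or DKO replicate 3, at 0.44 to 0.48 (adjusted p 0.0555 to 0.0607).

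Rpl14, a large subunit protein, behaved likewise with signals of 1167, 993, 1095 and 1184 in batch 1, 1607, 1927, 2086 and 1572 in batch 2, and 2000.3, 1896, 1575 and 1808 in batch 3. Batch 1 was below the other batches without overlap, by 0.68 and 0.70 on the log2 scale (SE 0.142 each, adjusted p 0.00344 and 0.00245 by limma). The remaining increases in batch 2 were smaller: Rpl10a 0.44, Rpl37a 0.37, Rpl7a 0.34, Rpl7 0.28 and Rpl22 0.27. Rpl22, a protein that developing alpha-beta T cells are known to need, had the largest adjusted p of the 8, at 0.0478. The smaller increases did not all hold under other settings. Rpl7 and Rpl22 were not called after quantile normalization, with signals floored at 32 or with no filter on dim probe sets (adjusted p 0.0529 to 0.165 and 0.0691 to 0.292 by limma). Each also lost its call with 7 of the 12 arrays left out in turn, at 0.24 to 0.32 (adjusted p 0.0572 to 0.12) and 0.21 to 0.31 (adjusted p 0.0522 to 0.175). For both these were the 4 arrays of batch 1 and the Ebi3_KO and Il10_KO arrays of batch 2, with WT replicate 2 for Rpl7 and Ebi3_KO replicate 3 for Rpl22. Rpl7a lost its call after quantile normalization and with no filter (adjusted p 0.0773 and 0.0639), and without replicate 1 of Ebi3_KO or DKO or replicate 2 of Ebi3_KO or Il10_KO, at 0.27 to 0.34 (adjusted p 0.0572 to 0.0978). Rpl37a had an adjusted p of 0.0531 after quantile normalization.

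The genes lower in batch 2 were Rps15, Rps19, Rpl11 and the pseudogene Rps4l. Rps15 (small subunit) had signals in WT, Ebi3_KO, Il10_KO and DKO of 24313, 24484, 21968 and 21462 in batch 1, 16853, 11699, 11995 and 9028 in batch 2, and 28000.2, 23754, 24611 and 25761 in batch 3. The 4 arrays of batch 2 were the 4 lowest. The log2 difference was -0.93 (SE 0.120, adjusted p 2e-04 by limma) against batch 1, and batch 3 exceeded batch 2 by 1.07 (SE 0.120, adjusted p 7.04e-05).

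Rps19, a gene mutated in Diamond-Blackfan anaemia, read 20246, 22095, 19787 and 19945 in batch 1, 12558, 11509.5, 12545 and 11649 in batch 2, and 20765, 16711, 18380 and 16935 in batch 3. Rpl11, which binds Mdm2 when ribosome assembly fails, read 18812, 17709, 17202 and 17722, then 14229.9, 12543, 10866 and 9191, then 16491, 14433, 16504 and 14019. Rps19 was lowest in batch 2 without overlap. Rpl11 in batch 2 was below all of batch 1, and the WT array of batch 2 overlapped with the DKO array of batch 3. The differences from batch 1 were -0.76 (SE 0.0931, adjusted p 0.000142) and -0.63 (SE 0.106, adjusted p 0.000975) by limma. Rps4l was at -1.35 (SE 0.423, adjusted p 0.0292), on signals of 11.4 to 96.8 in batch 2 against 99.5 to 243.4 in batch 1. The Rps4l call was lost after quantile normalization or centring (adjusted p 0.115 and 0.0917), and without replicate 1 of WT or DKO or replicate 2 of Il10_KO or DKO, at -1.26 to -0.94 (adjusted p 0.0637 to 0.12). Rpl11 after centring was at -0.32 (adjusted p 0.0683). Fau, which encodes a ribosomal protein fused to a ubiquitin-like protein and falls outside the symbol rule, was lower in batch 2 as well, at -1.03 (adjusted p 4.4e-05).

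In batch 3 against batch 1 Rpl14, Rps6 and Rpl37a (0.36) were higher and Rpl39 (-0.95) and Rpl37 (-0.55) lower, beside 10.2% and 18.5% of all tested. The median over the members was -0.001 with 22 above 0, and over all tested -0.156 with 38.9% above 0. Against batch 2, besides Rps15 and Rps19 (0.59), Rpl11 was higher at 0.41, and besides Rpl27a, Rps28 (-0.65), Rpl38 (-0.38) and Rps4x (-0.33) were lower. The background there was 11% higher and 9.98% lower, and 16 members lay above 0, beside 49.2% of all tested. Of the 7 calls between batches 3 and 2, Rps28, Rpl38, Rps4x and Rpl11 were each lost when certain single arrays were left out. Rps28 was not called without replicate 2 of WT, Ebi3_KO or Il10_KO or replicate 3 of WT or Ebi3_KO, at -0.69 to -0.35 (adjusted p 0.0643 to 0.153 by limma). Rpl38 lost its call with 9 arrays, all but WT replicate 1 and DKO replicates 2 and 3, at -0.4 to -0.28 (adjusted p 0.0527 to 0.188). Rps4x lost it without WT replicate 2 or Ebi3_KO replicate 3, at -0.3 and -0.29 (adjusted p 0.0619 and 0.0607), and Rpl11 without Il10_KO or DKO replicate 2 or Il10_KO replicate 3, at 0.32 to 0.37 (adjusted p 0.0547 to 0.0625). Rps28, Rpl38 and Rps4x also lost their calls under both scalings and with no filter (adjusted p 0.0648 to 0.0921, 0.104 to 0.15 and 0.0556 to 0.0694), and Rpl38 with the floor (0.0635). In batch 3 against batch 1, Rpl39 and Rpl37 were not called after centring (-0.59 and -0.2, adjusted p 0.0765 and 0.41), nor Rpl37 without replicate 1 or 3 of WT or DKO, at -0.48 to -0.4 (adjusted p 0.0539 to 0.0945). The count of calls in batch 3 against batch 2 was 4 without WT replicate 2, without Il10_KO replicate 2 or without Ebi3_KO replicate 3, and for batch 2 against batch 1 it was 8 without DKO replicate 1 or without Il10_KO replicate 2. The Gapdh ratio given above was highest in batch 2, where the B cell markers were lowest, and the myeloid and neutrophil markers were highest in batch 3 (5 of 5 tested genes of each list higher than in batch 1). The part of any of these in the batch differences was not tested.

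The annotated starts of some members called in batch 2 are shown for the pyrimidine tract described above. Those of Rpl10a, Rpl37a and Rpl22, higher in batch 2 and without the tract, are not shown. The sequences are RefSeq's (GRCm38.p6) and run from 15 bases before to 15 bases from the start. Capitals mark a C followed by at least 4 bases that are each C or T, read on the gene's strand, with the C within 2 bases of the start. Of the genes higher in batch 2, these 4 held the tract, at chr7:109519180-109519209 (plus strand), chr9:120571502-120571531 (plus), chr4:86857353-86857382 (minus) and chr2:26910792-26910821 (plus):
Rpl27a: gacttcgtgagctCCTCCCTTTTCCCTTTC
Rpl14: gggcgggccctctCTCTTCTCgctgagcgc
Rps6: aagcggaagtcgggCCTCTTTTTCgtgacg
Rpl7a: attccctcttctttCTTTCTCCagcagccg
Of those lower in batch 2, Rps19 (3 annotated starts) and these genes held none, at chr10:80292416-80292445 (plus) and chr4:136053379-136053408 (minus):
Rps15: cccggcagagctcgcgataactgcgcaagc
Rpl11: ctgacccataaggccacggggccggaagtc

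The tract was found at 14 of 48 annotated starts of 40 members (29.2%), beside 8.96% of 32851 promoters of the genome. The other 6 members, Rpl7 and Rps4l among them, had no entry. Rpl10a, Rpl37a and Rpl22, also higher in batch 2, held none. A tract was also present at the brightest member, Rpl13a, and at Rpl38. The 14 genes with the tract gave 4 higher calls, 0 lower calls and a median of 0.22 in batch 2 against batch 1, beside 9.32% higher, 18.8% lower and a median of -0.176 for all tested probe sets. At 14 or above, where most members lay, the median of all 300 probe sets was 0.188. The 25 tested genes with an entry and no tract gave 3 higher and 3 lower calls and a median of 0.09. All these calls are of the brightest probe set of a gene. Among genes with the tract, other probe sets of Rpl13a (-0.6), Rpl35 (-0.31), Rps10 (-0.7), Rps18 (-0.54) and Rps24 (-1.09) were called lower in batch 2. Genes without the tract had such probe sets too, Rps7 and Rps9 among them. These counts are a description, and a start mapped a few bases away could change a gene's class. In DKO against WT the medians were -0.02 and -0.07. CCGGAAG, the core bound by ETS factors such as GABP, was found on either strand within 250 bases before and 50 after the start at 20 of the 48 (41.7%), beside 8.86% of all promoters. AAGATGGC, the core of the YY1 motif, was found at 3 (6.25%, beside 2.75%), and TATAAA at 5 (10.4%, beside 13.6%).

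Different probe sets of 1 ribosomal protein gene often gave different answers about batch. For 21 genes several probe sets were tested, and the median span between the lowest and the highest log2 difference of batch 2 from batch 1 was 0.86. The span passed 1 for 8 genes. The brightest probe set, which stands for the gene here, was the highest in difference for 10 of the 21. Among the 50 other probe sets of members 2 were higher and 15 lower in batch 2, where the 45 chosen gave 8 and 4. Of all tested probe sets 9.32% were higher and 18.8% lower.

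**Figure D5:**
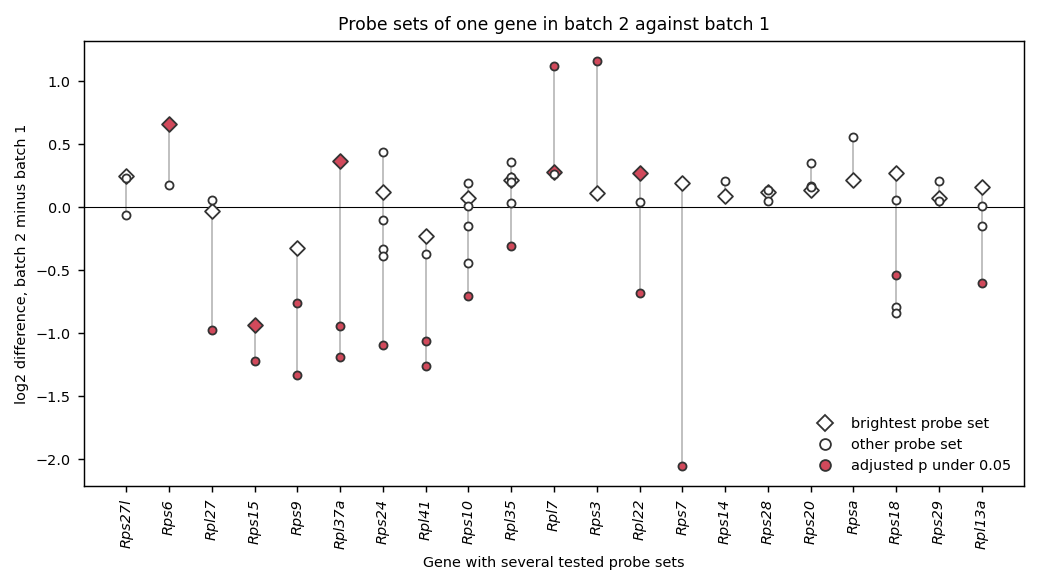
Log2 difference of batch 2 from batch 1 for every tested probe set of the 21 ribosomal protein genes with several, ordered by mean signal of the gene. Diamonds are the brightest probe set of a gene, circles the others, and filled symbols passed an adjusted p of 0.05. The lines join probe sets of 1 gene, and the longest belongs to Rps7, from 0.19 to -2.05.

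Rps7, a small subunit protein that can bind Mdm2, had the widest span. Its chosen probe set read 28810.2, 31956, 30567 and 28978 in batch 1 and 32693, 39357, 35122 and 30397 in batch 2 (WT, Ebi3_KO, Il10_KO, DKO), a difference of 0.19 (adjusted p 0.170). The other read 25901, 24248, 21929.5 and 24709.9 in batch 1 and 9968, 5600, 4442 and 4592 in batch 2, a difference of -2.05 (SE 0.239, adjusted p 0.000123 by limma). Both were bright in batch 1, and the second fell in batch 2.

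Rpl37a and Rpl22 were called in both directions. For Rpl37a the chosen probe set gave 0.37 and the other 2 gave -0.94 (adjusted p 0.0015) and -1.19 (adjusted p 0.00104). For Rpl22 the chosen one gave 0.27 and others 0.04 and -0.68 (adjusted p 0.00558). Both increases therefore hold for the brightest probe set alone, and the mean over all probe sets of the gene gave -0.59 and -0.12. Rps15, by contrast, was lower on both of its probe sets, at -0.93 and -1.22, and Rpl7 was above 0 on all 3 of its probe sets, at 0.28, 0.26 and 1.12. With the mean of all probe sets 17 of 45 genes were called in batch 2, 7 of them higher and 10 lower, where 8787 of all tested were called. The positions of the probes along the transcripts are not in the files.

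Genes that make, assist or control ribosomes were read from lists, and no gene of these lists passed in any genotype contrast, with or without the block. Their counts between batches stand beside 9.32% higher and 18.8% lower of all tested probe sets in batch 2 and 10.2% and 18.5% in batch 3, each against batch 1, with medians of -0.176 and -0.156. Most probe sets of that background were dimmer than these lists. At levels of 9 to 12, 39.6% of all tested were called in batch 2, and the medians were -0.006 in batch 2 and 0.058 in batch 3. Of 14 measured translation factors whose messages carry the pyrimidine tract, 7 were higher and 0 lower in batch 2 than in batch 1, with a median of 0.277. Their mean level on an array was 13.81 to 14.19, and probe sets that bright moved similarly. Among all tested probe sets at 12 to 14, 52.6% were called in either direction in batch 2, with a median of 0.283. At 14 or above it was 34.3%, with a median of 0.188. Of the translation factors, Eif3e, a subunit of initiation factor 3, was at 0.61 (adjusted p 0.00114 by limma) and Npm1, a nucleolar chaperone, at 0.47 (adjusted p 0.00506). The elongation factor Eef1a1 was at 0.13 (adjusted p 0.331 by limma). In batch 3 against batch 1 they gave 5 higher and 0 lower.

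RNA polymerase I and its factors (12 genes), which make ribosomal RNA, gave 5 higher and 2 lower in batch 2 and 3 higher and 0 lower in batch 3, each against batch 1. Polr1b, a core subunit, was at 0.93 (adjusted p 0.0029) and 1.31 (adjusted p 0.000218). Ribosome assembly factors (40 genes) gave 6 higher and 10 lower in batch 2, with Nop58, a box C/D particle protein, at -1.06 (adjusted p 0.00027), and 9 higher and 0 lower in batch 3. Of 16 regulators of ribosomal protein messages 5 were higher and 3 lower in batch 2, and 2 higher and 2 lower in batch 3, with medians of 0.324 and 0.076. Among the 5 higher in batch 2, Rheb, the activator of mTOR, was at 0.67 (adjusted p 0.000654 by limma). Larp1, which binds the pyrimidine tract, was at 0.52 (adjusted p 0.022 by limma). The 3 lower ones are not named here. The 76 mitochondrial ribosomal proteins, which belong to a separate ribosome, gave 15 higher and 19 lower in batch 2 and 26 higher and 0 lower in batch 3, with medians of -0.137 and 0.259 against the same background of 9.32% and 18.8%, and 10.2% and 18.5%. All of these adjusted p-values come from limma with genotype and batch over 31235 probe sets.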

How the data were processed

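Total RNA was labelled with biotin by a 2-cycle protocol, per the labels' protocols. MAS5 and Partek 6.4 are the tools in the submitters' processing notes, which state nothing about scale. What the authors deposited is the natural log (ln) of MAS5 signal plus 20, as the values themselves show: after exponentiation and subtraction of 20, signals below 200 were multiples of 0.1. They were divided by the natural log of 2, with no further normalization. The 45101 probe sets included 64 controls, which were left out. Of the rest, 31235 were at or above the 40th percentile of 3 arrays or more and were tested, and 13802 were not. Gene names came from the platform annotation.

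Genotypes were fitted with limma 3.58.1 in R 4.3.3 (lmFit, eBayes with trend, 8 residual degrees of freedom). Batches, and genotypes with batch as a block, used genotype plus batch (6 residual degrees of freedom). P-values were adjusted by Benjamini-Hochberg over all that were tested (threshold 0.05), and the scripts were tested on simulated data. Arrays with the same number correlated, after removal of genotype means, at 0.325 to 0.664 (18 pairs), against -0.531 to -0.0204 (36 pairs) for different numbers and genotypes. With genotype means removed the 3 residuals of a genotype sum to 0, so positive values for the same number go with negative ones for different numbers. Alternatives were other scalings, a floor of 32, no filter, other choices of probe set, members above the 99th percentile left out, and each array or batch left out. The members and lists were chosen with earlier results of these data known. The members named by rule are the brightest 8 and dimmest 6, and the 6 of smallest p for genotype and for batch. The rule also takes the 3 largest and 3 smallest differences per knockout among members above the median of all tested probe sets in mean level. Paralogs and members with known further roles complete it. Rps7, Rps9 and the other genes with several probe sets were added after their values were seen. Rpl10a and Rpl7a, named because they were called between batches, and the genes named from the other lists stand outside the rule.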

Additional observations from a re-analysis of the deposited data

How the results depend on the processing

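The 0 member calls in each genotype contrast held under every alternative run: the replicate block (0 of 45 in each), both scalings, the floor, no filter, each choice of probe set, and every array or batch left out. With arrays or batches left out the median member difference of DKO against Ebi3_KO ran from -0.203 to -0.01, of DKO against Il10_KO from -0.149 to 0.055, and of the interaction from -0.23 to 0.037. Of the named members above the median level, 8 differences changed sign when 1 array or batch was left out: in Ebi3_KO against WT Rps27l ran from -0.43 to 0.04, Rps15 from -0.46 to 0.1, Rps28 from -0.15 to 0.61 and Rpl27a from -0.09 to 0.63. In Il10_KO against WT Rps15 ran from -0.48 to 0.04 and Rpl11 from -0.29 to 0.04, and in DKO against WT Rps15 ran from -0.7 to 0.06 and Rps28 from -0.05 to 0.77. These ranges are from the fit without the block. With the block, arrays left out turned the sign of Rps28 in Ebi3_KO (-0.05 to 0.54) and of none of the other 7. Batch results depended more on the processing, and the cause was not tested. Quantile normalization gave a median of -0.022 in batch 2 against batch 1, 9 calls in batch 3 against batch 1, and a median of 0.036 in batch 3 against batch 2. For all tested probe sets these were 0.022, 8107 calls of 31235, and 0.005. Centring each array on its median gave 31 calls and a median of 0.425 in batch 2 against batch 1, where 8977 of all tested were called. It gave 31 calls and 0.352 in batch 3 against batch 1, where all tested gave 11102 calls and 0.198. For batch 3 against batch 2 it gave 4 calls, beside 6513 of all tested, and for any batch 35, beside 14004. This centring moved the median of all tested probe sets in batch 2 against batch 1 from -0.176 to 0.132. Batch 3 against batch 2 gave 4 calls with no filter (beside 5853 of all), 13 with the mean of all probe sets (beside 6542), and 4 to 9 with 1 array left out. With that mean Rpl22 (-0.12) and Rpl37a (-0.59) reversed in batch 2 and Rpl37a (-0.04) in batch 3, each against batch 1. Plain probe sets alone gave a median of -0.145 in batch 3 against batch 1, over 24 genes. The 12 members left without those over the 99th percentile gave 4 calls in batch 2 against batch 1, 1 in batch 3 against batch 2, and 6 for any batch. Of all tested probe sets 28.1%, 21% and 41.8% were called there. The median of these members was -0.143 in batch 3 against batch 1, beside -0.156 for all tested. Dim probe sets such as Rps4l and Rpl39l carried the largest spread.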
